A study of Homo sapiens with 6 samples.

Results

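The genes described here are the Hippo signalling pathway and the target genes of its effectors YAP and TAZ. The list held 38 genes, 22 components of the pathway and 16 reported targets, chosen by name. Each gene was read from the array's summary of its probes (a transcript cluster) that carried this gene symbol and no other, and the cluster with the highest mean was taken where there were several. In this way 36 of the 38 genes were measured, 21 components and 15 targets, out of 22376 genes in all. AMOT and FSTL1 are not analysed here, because the cluster of each also carries the symbol of a microRNA.

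The Hippo pathway restrains tissue growth through a kinase cascade. The kinases encoded by STK3 and STK4, with the scaffold SAV1, activate LATS1 and LATS2, which work with MOB1 proteins and phosphorylate YAP (YAP1) and TAZ (WWTR1). Phosphorylated YAP and TAZ are held in the cytoplasm or degraded, whereas the unphosphorylated proteins enter the nucleus and switch on genes through the TEAD transcription factors. Cell junctions, the actin cytoskeleton and matrix stiffness feed into this cascade, and in mouse skin α-catenin has been reported to hold YAP at the junction. In intestinal epithelium YAP is known for its part in regeneration and in colorectal tumours. Most of this control acts on proteins, whereas the arrays measured RNA.

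Both groups came from DLD-1, a line long grown from a human colorectal adenocarcinoma, kept untreated for 96 h in three-dimensional collagen type I at 1 mg/ml. There were 3 arrays of Δα-Cat cells and 3 of α-Cat cells, each group numbered 1 to 3. The labels call the cells subpopulations and subclones of DLD-1 and do not spell out α-Cat, a missing or altered α-catenin being the reading used here. A difference between the groups cannot be told apart from a difference between subclones. Whether the 3 arrays of a group stand for separate cultures is not stated, and each p-value weighs a difference against array-to-array spread that may be purely technical. As a check of the labels, CTNNA1 (αE-catenin) read 6.55, 6.52 and 6.41 on the log2 scale in Δα-Cat and 7.79, 7.68 and 7.71 in α-Cat. All 10 markers of colon epithelium lay above the level mark described below in both groups, and their mean per array ranged from 8.74 to 8.89 in Δα-Cat and from 8.61 to 8.75 in α-Cat. None was called, 6 of the 10 had an unadjusted p under 0.05 (5 higher and 1 lower in Δα-Cat), and CDH17, an intestinal cadherin, had the largest change (0.72, adjusted p = 0.101 over all clusters and 0.0355 when only clusters with a single gene symbol were tested). Of the 9 measured markers each of fibroblasts, endothelium and leukocytes, 4, 4 and 6 lay above the mark and none was called (limma, with 0, 0 and 2 at an unadjusted p under 0.05). Their array means ran from 3.75 to 3.82, 3.98 to 4.09 and 4.32 to 4.46 in Δα-Cat, and from 3.76 to 3.77, 4.06 to 4.09 and 4.36 to 4.39 in α-Cat. The leukocyte markers CD14 and CD68 had changes of -0.64 and 0.66, and CD14 was called in the single-symbol fit (adjusted p = 0.12 over all clusters and 0.0409 in that fit). CDH17, CD14 and CD68 were named after their values were seen, as was the epithelial marker CEACAM5 (change 0.55, adjusted p = 0.233 over all clusters). All of their changes were larger in size than that of any member. The part of these markers in the results was not tested. In bulk RNA, a smaller share of cells that express a gene and less of its RNA per cell cannot be told apart.

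No member of the pathway and none of its targets was called as different between the subpopulations. A call required an adjusted p under 0.05 in limma's test over all 65526 clusters, a rule met by 0 of 36 members, 0.626% of all genes and 0.342% of all clusters. The count of members stayed at 0 with same-numbered arrays paired as a block, with cyclic loess and with median centring, which called 0.425%, 0.496% and 0.42% of all genes, and with a trended robust fit, which called 0.773%. It was 1, GADD45A, when only single-symbol clusters were tested, a rule that called 2.94% of all genes. The same gene was called when only clusters above the median level were tested, a rule that called 1.9% of the genes kept. At an unadjusted p under 0.05, 10 of the 36 members (27.8%) passed (6 of 21 components and 4 of 15 targets), against 13.1% of all genes. Levels in the 3 Δα-Cat arrays did not overlap those in the 3 α-Cat arrays for 16 members (44.4%), 7 higher and 9 lower in Δα-Cat, against 21.3% of all genes. Among genes at or above the level mark, 16.8% had such a p and 25.5% did not overlap. The mark is log2 4.43, the 95th percentile of 364 olfactory receptor genes, taken here as a stand-in for background, and a gene below it is called dim.

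The size of any change was bounded for most members. Changes are Δα-Cat minus α-Cat on the log2 scale, and the 95% interval of the change, not adjusted for the number of genes, lay within 1.5-fold in either direction (0.58 on the log2 scale) for 32 of the 36 members. The exceptions were FRMD6 among the components and GADD45A, NUAK2 and CRIM1 among the targets. All genes together met the same bound in 95.8% of cases. The median size of change was 0.07 for components and 0.14 for targets, beside 0.06 for all genes and 0.07 for genes at or above the level mark.

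**Figure D1:**
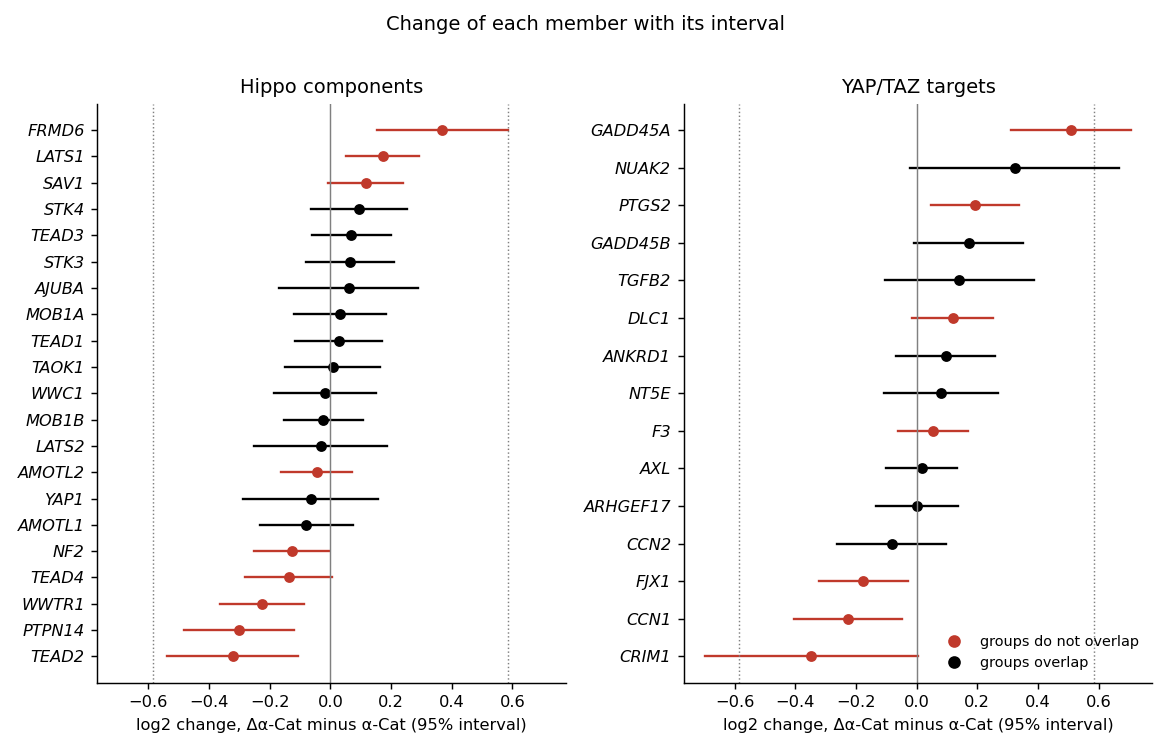
Log2 change, Δα-Cat minus α-Cat, of the 21 components (left) and 15 targets (right); points are the fitted changes and bars their 95% intervals from limma, dotted lines mark 1.5-fold, and red marks members whose groups do not overlap. FRMD6 and GADD45A lie farthest to the right of their lists, and TEAD2 and CRIM1 farthest to the left.

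YAP1, the better known of the paired coactivators, read 7.82, 7.99 and 7.89 in Δα-Cat and 7.93, 7.82 and 8.14 in α-Cat. The groups overlapped, with a change of -0.06 (SE 0.09, 95% interval -0.29 to 0.16, adjusted p = 0.907). WWTR1, which encodes its paralogue TAZ, read 5.06, 4.96 and 4.94 in Δα-Cat and 5.17, 5.25 and 5.21 in α-Cat. Every Δα-Cat array was below every α-Cat array, and the change of -0.22 (SE 0.06, 95% interval -0.36 to -0.09) was not called (adjusted p = 0.245). The intervals of the YAP1 and WWTR1 changes overlap, and whether the changes differ was not tested.

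The TEAD factors bind DNA on behalf of YAP and TAZ. TEAD1 read 7.41, 7.30 and 7.34 in Δα-Cat and 7.35, 7.24 and 7.37 in α-Cat, a change of 0.03 (SE 0.06). TEAD3 read 7.10, 7.05 and 7.01 in Δα-Cat and 6.95, 6.97 and 7.03 in α-Cat, a change of 0.07 (SE 0.05). For both genes the arrays of the groups were interleaved. TEAD2 read 6.58, 6.54 and 6.27 in Δα-Cat and 6.73, 6.79 and 6.84 in α-Cat. All 3 Δα-Cat arrays were lower, array 3 most of all, and the change of -0.32 (SE 0.09, 95% interval -0.54 to -0.11) missed the threshold with an adjusted p of 0.29. Without that array the change was -0.22. TEAD4 read 7.16, 7.15 and 7.26 in Δα-Cat and 7.27, 7.32 and 7.39 in α-Cat. The groups touched without overlapping (change -0.14, SE 0.06, adjusted p = 0.531).

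LATS1, a kinase that phosphorylates YAP and TAZ directly, read 6.70, 6.67 and 6.69 in Δα-Cat and 6.56, 6.50 and 6.49 in α-Cat. All Δα-Cat arrays were above all α-Cat arrays with little spread, and the change was 0.17 (SE 0.05, 95% interval 0.05 to 0.29, adjusted p = 0.308). Its paralogue LATS2, which is itself a YAP target, read 6.56, 6.53 and 6.69 in Δα-Cat and 6.49, 6.58 and 6.80 in α-Cat. Those groups overlapped (change -0.03, SE 0.09, 95% interval -0.25 to 0.19). SAV1, the scaffold of the upstream kinases, read 6.86, 6.79 and 6.81 in Δα-Cat and 6.69, 6.68 and 6.74 in α-Cat, again without overlap but not called (change 0.12, SE 0.05, adjusted p = 0.547).

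The remaining cascade genes had changes of at most 0.09 in size. STK4 and STK3, the MST kinases, had changes of 0.09 and 0.07 (adjusted p = 0.752 and 0.828), and STK3 was dim in both groups. MOB1A and MOB1B, the coactivators of LATS, had changes of 0.03 and -0.02. TAOK1, a kinase that activates MST kinases, had a change of 0.01 (95% interval -0.15 to 0.16). The groups overlapped for each of these 5 genes.

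Among the regulators upstream of the cascade or beside it, FRMD6 had the largest change. FRMD6, a FERM-domain protein proposed as the counterpart of Expanded in Drosophila, read 6.17, 5.9952 and 5.84 in Δα-Cat and 5.72, 5.57 and 5.61 in α-Cat. Every Δα-Cat array was higher, by 0.44, 0.43 and 0.24 between arrays of the same number. The change of 0.37 (SE 0.09, 95% interval 0.15 to 0.59), a 1.29-fold difference, had the smallest adjusted p of the components and was not called (adjusted p = 0.222). PTPN14, a phosphatase that binds YAP and keeps it out of the nucleus and is also a YAP target, read 7.41, 7.44 and 7.53 in Δα-Cat and 7.67, 7.72 and 7.90 in α-Cat. It was lower in each Δα-Cat array, with a change of -0.30 (SE 0.08, 95% interval -0.48 to -0.12, adjusted p = 0.232).

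NF2, which encodes merlin, an activator of the cascade at the cell membrane, read 7.60, 7.67 and 7.59 in Δα-Cat and 7.73, 7.77 and 7.74 in α-Cat. Its groups did not overlap, and the change was -0.13 (SE 0.05, adjusted p = 0.497). AMOTL2, an angiomotin-like protein that binds YAP at junctions and another YAP target, also had groups that did not overlap, but its change was -0.05 (SE 0.05). AMOTL1, of the same family, had a change of -0.08 (SE 0.06), WWC1 (KIBRA, a partner of merlin) of -0.02 (SE 0.07) and AJUBA (a LIM protein that restrains LATS) of 0.06 (SE 0.10), all with overlapping groups. A second cluster of WWC1, dim in both groups, had a change of -0.01.

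**Figure D2:**
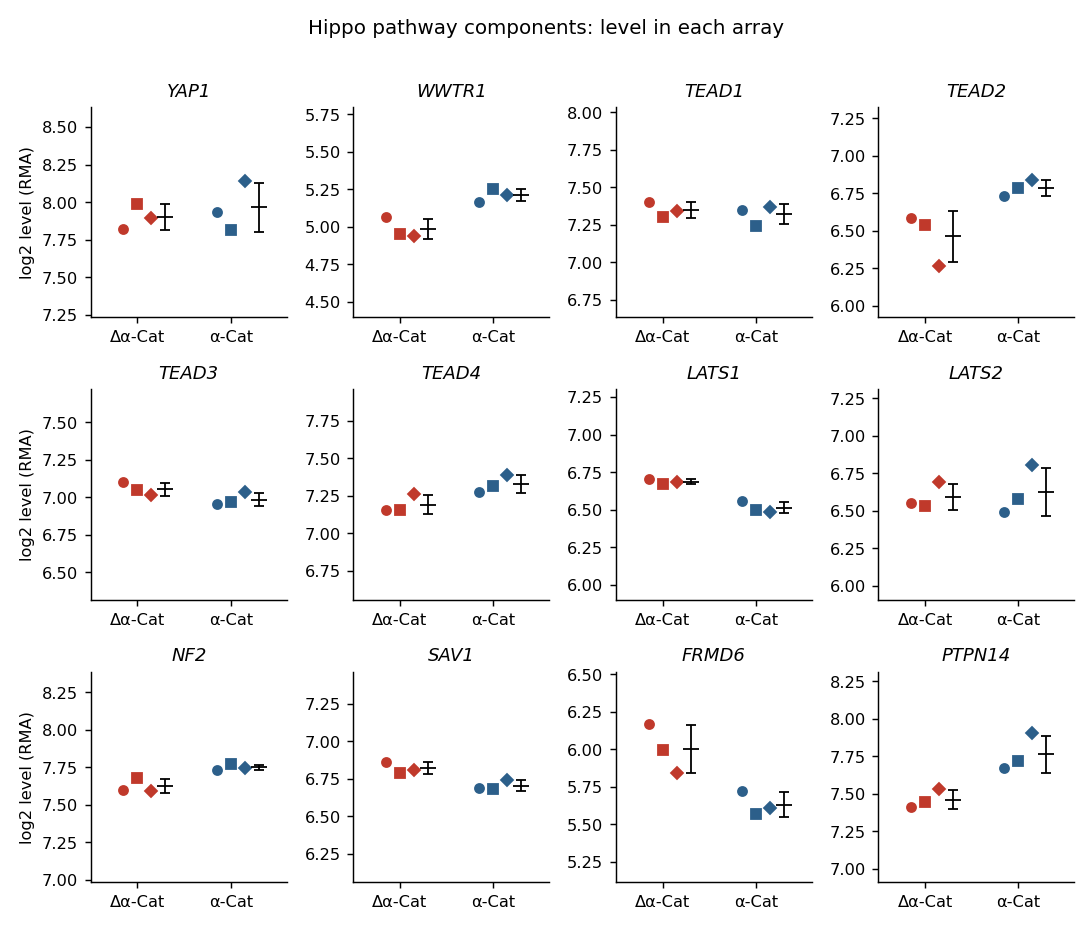
Log2 level of 12 pathway components in each array of Δα-Cat (red, left) and α-Cat (blue, right); circles, squares and diamonds are replicates 1, 2 and 3, bars beside them the mean and SD (n = 3), and each vertical axis spans the same log2 range. WWTR1, TEAD2, TEAD4, NF2 and PTPN14 sit lower in all Δα-Cat arrays and LATS1, SAV1 and FRMD6 higher, while YAP1, TEAD1, TEAD3 and LATS2 overlap.

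YAP and TAZ reach many of their targets through the letters GGAATG, the core of the site that TEAD proteins bind. Both strands were searched for these letters (GGAATG or its complement CATTCC, counting only copies that did not overlap). The search covered the 250 bases before the transcript start of RefSeq (build GRCh38.p14). Of 11 such windows, those of the 10 targets that have one, 5 held the letters and 3 held them more than once. Of 26 windows of 18 components, 4 held them, and of all 35116 windows 11.9% did and 0.928% held them more than once. CCN1, GADD45A, CRIM1, DLC1 and ARHGEF17 had no window and were not searched, nor were the components STK3, TEAD1 and TEAD4. The windows below are those of targets with more than 1 copy and are shown 5′ to 3′ on the strand of the gene, with the letters in capitals. They lie on the minus strand at chr6:131951373-131951622 (CCN2), chr10:90921088-90921337 (ANKRD1) and chr1:205321746-205321995 (NUAK2). A match of letters is a description and shows no binding.
CCN2: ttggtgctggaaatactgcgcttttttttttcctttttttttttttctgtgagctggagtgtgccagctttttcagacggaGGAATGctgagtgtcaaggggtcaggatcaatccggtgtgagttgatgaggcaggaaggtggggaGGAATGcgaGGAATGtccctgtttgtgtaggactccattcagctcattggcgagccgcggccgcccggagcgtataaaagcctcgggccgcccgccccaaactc
ANKRD1: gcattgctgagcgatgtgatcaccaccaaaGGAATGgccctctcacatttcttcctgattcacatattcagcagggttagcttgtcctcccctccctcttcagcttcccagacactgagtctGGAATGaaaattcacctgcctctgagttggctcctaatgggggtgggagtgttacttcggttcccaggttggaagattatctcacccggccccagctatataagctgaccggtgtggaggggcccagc
NUAK2: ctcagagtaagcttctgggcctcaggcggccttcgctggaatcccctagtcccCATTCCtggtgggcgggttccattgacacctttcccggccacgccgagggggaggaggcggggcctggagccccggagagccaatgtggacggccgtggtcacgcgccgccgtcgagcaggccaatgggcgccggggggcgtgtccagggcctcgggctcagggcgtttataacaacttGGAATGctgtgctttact

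CCN2, CCN1 and ANKRD1 are the targets most often read as a gauge of YAP and TAZ activity. CCN2, a secreted matricellular protein whose window holds 3 copies of the letters, read 6.27, 6.25 and 6.12 in Δα-Cat and 6.18, 6.37 and 6.35 in α-Cat. The groups overlapped, and the change was -0.08 (SE 0.08, 95% interval -0.26 to 0.10, adjusted p = 0.826). CCN1, a related secreted protein, read 6.39, 6.46 and 6.31 in Δα-Cat and 6.49, 6.70 and 6.65 in α-Cat. Each Δα-Cat array was lower, with a change of -0.23 (SE 0.08, 95% interval -0.40 to -0.05) that was not called (adjusted p = 0.379). ANKRD1, an ankyrin-repeat protein with 2 copies of the letters, read 3.09, 3.25 and 3.14 in Δα-Cat and 2.97, 3.13 and 3.09 in α-Cat. It was dim in both groups, which overlapped (change 0.10, SE 0.07, adjusted p = 0.753).

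GADD45A, which encodes a stress protein of growth arrest and DNA damage, came nearest to a call among the members. It read 7.98, 8.16 and 8.30 in Δα-Cat and 7.63, 7.62 and 7.66 in α-Cat. All 3 Δα-Cat arrays were higher and more spread (8.15 ± 0.16 in Δα-Cat and 7.64 ± 0.02 in α-Cat, SD, n = 3 each), and arrays of the same number differed by 0.35, 0.54 and 0.64. The change was 0.51 (SE 0.08, 95% interval 0.31 to 0.71), a 1.42-fold difference, with an adjusted p of 0.0832. When only clusters with a single gene symbol were tested it was called (adjusted p = 0.0238, a rule that called 2.94% of all genes), and also when only clusters above the median level were tested (adjusted p = 0.0449, calling 1.9% of the genes kept). With 1 array left out its adjusted p lay between 0.0544 and 0.287. GADD45A is also a known target of p53 and of stress factors, so its RNA is not specific to YAP and TAZ.

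GADD45B, a relative of GADD45A, read 7.61, 7.53 and 7.77 in Δα-Cat and 7.41, 7.53 and 7.45 in α-Cat. The groups met at replicate 2 of each, and the change was 0.17 (SE 0.08, adjusted p = 0.534). NUAK2, an AMPK-related kinase with 2 copies of the letters in its window, read 7.19, 7.40 and 7.26 in Δα-Cat and 6.86, 7.29 and 6.73 in α-Cat. The groups overlapped, α-Cat array 2 being high, and the interval of its change was wide (0.32, SE 0.15, 95% interval -0.02 to 0.67, adjusted p = 0.539). Without that array the change was 0.49 with an adjusted p of 0.181. Over all fits with 1 array left out, the change ran from 0.21 to 0.49 and the adjusted p from 0.181 to 0.804. PTGS2, the inducible cyclooxygenase COX-2, was dim in both groups, at 3.21, 3.28 and 3.16 in Δα-Cat and 3.02, 3.09 and 2.95 in α-Cat. Its groups did not overlap (change 0.19, SE 0.06, adjusted p = 0.357).

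On the lower side, FJX1, a secreted relative of a Drosophila kinase that acts on the Fat and Dachsous cadherins, read 5.33, 5.44 and 5.41 in Δα-Cat and 5.49, 5.64 and 5.57 in α-Cat. Every Δα-Cat array was lower (change -0.18, SE 0.06, adjusted p = 0.411). CRIM1, a membrane protein that binds bone morphogenetic proteins, read 8.71, 8.66 and 8.18 in Δα-Cat and 8.72, 8.89 and 8.98 in α-Cat. Its groups did not overlap, but arrays 1 differed by only 0.01 and most of the difference lay in Δα-Cat array 3. The change was -0.35 (SE 0.15, adjusted p = 0.513) and was -0.18 without that array.

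The other targets had small changes. DLC1 read 4.32, 4.40 and 4.40 in Δα-Cat and 4.21, 4.24 and 4.31 in α-Cat, dim in both groups and without overlap (change 0.12, SE 0.06, adjusted p = 0.571). TGFB2, a TGF-β ligand, had a change of 0.14 (SE 0.10). NT5E, the ectonucleotidase CD73, had a change of 0.08 (SE 0.08), F3 (tissue factor) of 0.05 (SE 0.05) and the receptor kinase AXL of 0.02 (SE 0.05). F3 and AXL had the narrowest intervals among the targets, -0.06 to 0.17 for F3 and -0.10 to 0.13 for AXL. ARHGEF17 averaged 6.18 in both groups.

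**Figure D3:**
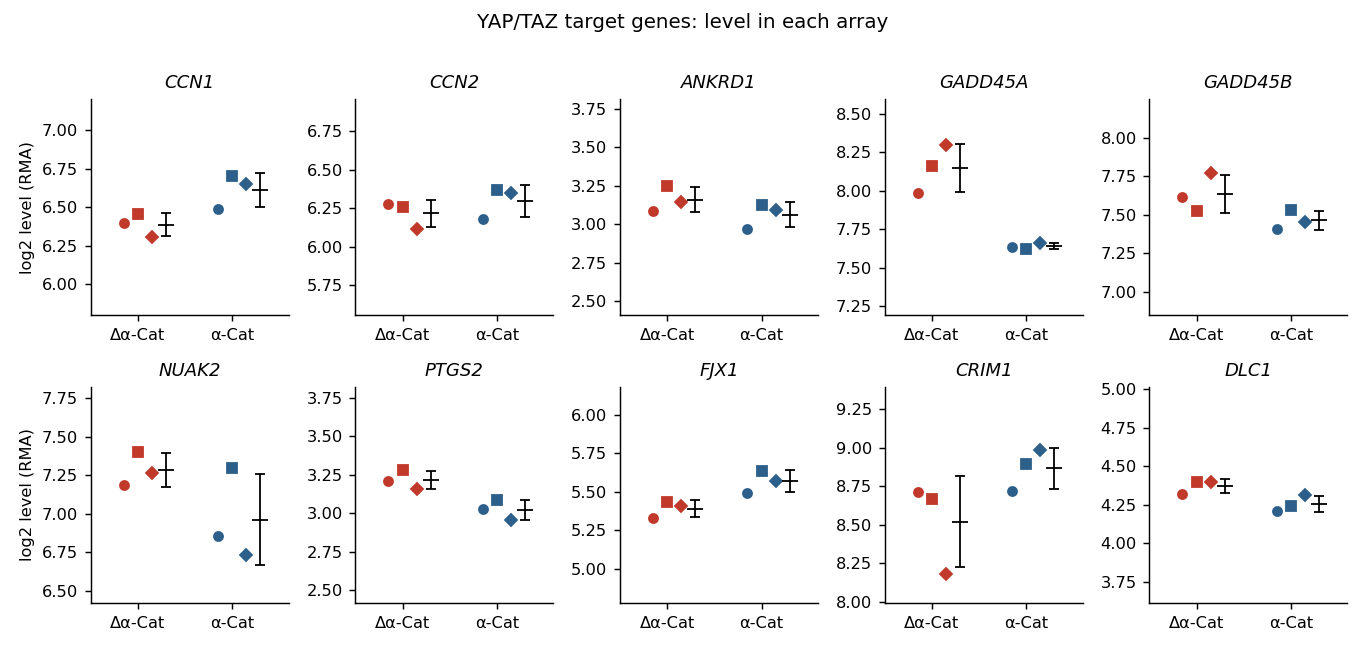
Log2 level of 10 YAP/TAZ targets in each array of Δα-Cat (red, left) and α-Cat (blue, right); circles, squares and diamonds are replicates 1, 2 and 3, bars beside them the mean and SD (n = 3), and each vertical axis spans the same log2 range. GADD45A stands highest above its α-Cat arrays, and CCN1, FJX1 and CRIM1 lie below theirs in all 3 Δα-Cat arrays.

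Both lists held changes in either direction. Of the components, 10 had a positive and 11 a negative change, with a median of -0.02. Of the targets, 10 were positive, 4 negative and ARHGEF17 at 0, with a median of 0.08. The positive ones include ANKRD1, DLC1 and PTGS2, which were dim in both groups. LATS2, PTPN14 and AMOTL2, counted as components but also YAP targets, had negative changes (-0.03, -0.30 and -0.05, none called). Over all genes the median was -0.0005 and 49.8% of changes were positive. The mean of the targets in each array, after subtracting each gene's mean over all 6 arrays, was 0.0067, 0.0802 and -0.0001 in Δα-Cat and -0.0791, 0.0276 and -0.0354 in α-Cat. Taken as unpaired groups the arrays overlapped, and same-numbered arrays differed by 0.0858, 0.0526 and 0.0353, all higher in Δα-Cat (not tested). Single genes weigh heavily in this mean of the targets. GADD45A alone differed by 0.35, 0.54 and 0.64 between same-numbered arrays, and CRIM1 by -0.01, -0.23 and -0.80. The mean was not recomputed without GADD45A or the dim targets, so it shows no shared shift of the targets. The same mean over the components was 0.0040, -0.0130 and -0.0167 in Δα-Cat and -0.0057, -0.0141 and 0.0454 in α-Cat, also with overlap, and same-numbered arrays differed by 0.0097, 0.0011 and -0.0621.

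Other genes of the pathway gave 1 call. Of 72 further kinases, phosphatases, scaffolds, polarity proteins and TEAD cofactors, 65 were measured, and VGLL1 was called higher, where 0.371% of all genes were called higher and 0.255% lower. VGLL1, a Vestigial-like cofactor that binds TEAD proteins at the surface used by YAP and TAZ, read 4.77, 4.45 and 4.89 in Δα-Cat and 3.80, 3.84 and 3.85 in α-Cat. All 3 Δα-Cat arrays were higher. It was dim in all 3 α-Cat arrays, and Δα-Cat array 2 (4.45) lay just above the mark (4.43). With the level mark standing in for the α-Cat level, its Δα-Cat mean was 1.2-fold higher, given without an interval (measured change 0.87, SE 0.11, adjusted p = 0.0409). VGLL1 was not called with the replicate number as a block (adjusted p = 0.0563). Of the 6 arrays, leaving out any except Δα-Cat replicate 2 also ended the call, with adjusted p-values from 0.106 to 0.186. The other Vestigial-like genes VGLL2, VGLL3 and VGLL4 had changes of -0.05, 0.06 and 0.0037, not called.

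At an unadjusted p under 0.05, 12 of the 65 (18.5%) passed, 9 higher and 3 lower, against 13.1% of all genes and 16.8% of genes at or above the level mark. The fit on single-symbol clusters, which called 2.94% of all genes, called 3, all higher: VGLL1, STK38 and SIK2, of which the last 2 are named after their values were seen. STK38, a kinase of the same family as LATS, read 7.43, 7.75 and 7.50 in Δα-Cat and 6.95, 7.09 and 6.91 in α-Cat (change 0.58, adjusted p = 0.0832 over all clusters and 0.0251 in that fit). SIK2, a salt-inducible kinase, had a change of 0.36 (adjusted p = 0.0916 over all clusters and 0.0236 in that fit). In both genes every Δα-Cat array was above every α-Cat array.

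Further genes reported as YAP or TAZ targets in other cells were also examined. Of 60 such genes 50 were measured, and 4 were called, 3 lower and 1 higher, where 0.626% of all genes were called, 0.255% lower and 0.371% higher. FSCN1, the actin-bundling protein fascin, read 7.93, 7.97 and 7.98 in Δα-Cat and 8.30, 8.38 and 8.34 in α-Cat. It was lower in every Δα-Cat array and fell by 0.38 on the log2 scale (SE 0.05, adjusted p = 0.0484). With same-numbered arrays paired as a block its adjusted p was 0.102. OLR1, a receptor for oxidised lipoprotein, read 7.84, 7.52 and 7.80 in Δα-Cat and 9.41, 9.07 and 9.37 in α-Cat. Every Δα-Cat array was lower, and it fell by 1.56 on the log2 scale (SE 0.12, adjusted p = 0.00737).

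ABCB1, a drug efflux pump, read 4.32, 4.17 and 4.07 in Δα-Cat and 5.11, 4.82 and 4.93 in α-Cat. It was dim in all 3 Δα-Cat arrays. With the level mark in place of the Δα-Cat level, its α-Cat mean was 1.43-fold higher, given without an interval (measured change -0.77, SE 0.10, adjusted p = 0.0409). PHGDH, an enzyme of serine synthesis, read 7.99, 8.01 and 8.13 in Δα-Cat and 7.55, 7.62 and 7.61 in α-Cat. Every Δα-Cat array was higher, and it rose by 0.45 (adjusted p = 0.0474, SE 0.06). The block gave PHGDH an adjusted p of 0.084. With 1 array left out, FSCN1, ABCB1 and PHGDH lost their calls in each of 6 fits (adjusted p from 0.116 to 0.206, from 0.0621 to 0.187 and from 0.0934 to 0.21), and OLR1 lost its call without α-Cat replicate 1 (adjusted p = 0.0586) or replicate 3 (0.0535).

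Of the 50 further targets, 18 (36%) had an unadjusted p under 0.05 in limma, 3 higher and 15 lower in Δα-Cat. The share was 13.1% of all genes and 16.8% of genes at or above the level mark. In this list 36 of 50 changes were negative, with a median of -0.09. It holds 9 measured genes of mitosis and DNA synthesis, a split made after their values were seen: BIRC5, CDC20, CENPF, DUT, ECT2, HMMR, SHCBP1, TK1 and TOP2A. All 9 had a negative change, from -0.62 for HMMR to -0.14 for DUT, and 0 of the 9 were called over all clusters (limma; 8 of 9 at an unadjusted p under 0.05, against 13.1% of all genes). Of the remaining 41 genes 14 had a positive and 27 a negative change, with a median of -0.05, and 10 (24.4%) had such a p. The fit on single-symbol clusters, which called 2.94% of all genes, called 8 of the 50: the 4 above, NDRG1, which was higher, and MYC, DAB2 and HMMR, which were lower. The last 4 are named after their values were seen. MYC, a transcription factor of cell growth, averaged 7.92 ± 0.07 in Δα-Cat and 8.32 ± 0.07 in α-Cat (SD, n = 3 each, change -0.40, adjusted p = 0.0805 over all clusters and 0.0206 in that fit).

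**Figure D4:**
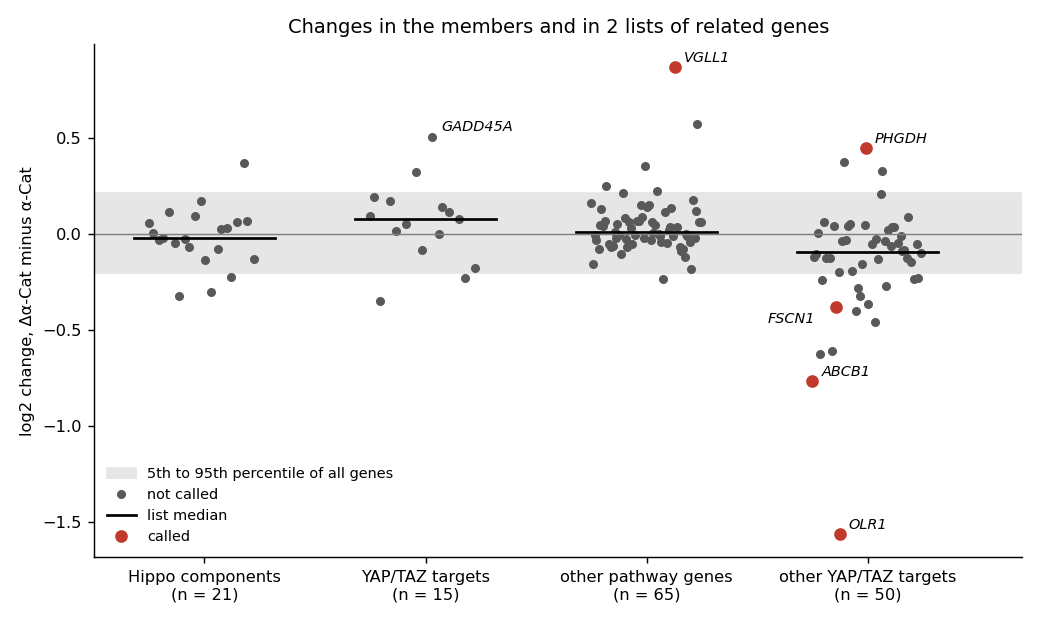
Log2 change, Δα-Cat minus α-Cat, of each measured gene in the 2 member lists and the 2 lists of further genes; lines are list medians, red points genes called over all clusters, and the grey band spans the 5th to 95th percentile of all genes (-0.20 to 0.22). No member is red, and VGLL1 lies highest and OLR1 lowest.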

How the data were processed

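Gene expression was measured with 6 Affymetrix arrays, 3 of Δα-Cat and 3 of α-Cat DLD-1 cells. RMA and Affymetrix Expression Console are named, without versions, in the submitters' processing notes for the deposited values. No source used here states their scale, and the deposited values were taken as log2 because intact ones lay between 1.26 and 14.24 with array medians of 4.02 to 4.07. Of 70513 deposited rows, 4987 held values without a decimal point and were left out, and 65526 were tested. A second table, with 6 per-sample columns whose names match no label, was not used. The values are not counts, and the number of arrays limits the precision.

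Genes were named from the platform annotation, updated through RefSeq (GRCh38.p14): 22686 clusters carried 1 symbol, 1385 several and 41455 none. Of 38 members, 36 had a cluster with 1 symbol. Differences were fitted with limma 3.58.1 under R 4.3.3 (functions lmFit and eBayes without a covariate, Benjamini-Hochberg adjustment over all clusters tested), and every adjusted p is limma's. The fit was also run on simulated arrays with independent noise, unlike the correlated arrays described next, and no result is drawn from that run. Residuals of same-numbered arrays correlated at 0.219, 0.214 and 0.128, all above 0.1, so the numbers were taken to pair the arrays, although no label gives their meaning. The main fit, its intervals and the counts of overlap are unpaired, and the replicate block is an alternative fit. That block, trended robust eBayes, cyclic loess, median centring, single-symbol clusters, clusters above the median level, the lowest cluster per gene and leaving out each array were run as alternatives. Tables and plots used Python 3.11.15, pandas 2.3.3 and matplotlib 3.10.9.

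Members, lists and alternatives were chosen with earlier results of these data known, so no list is independent evidence. Genes named with values in every array were those called, the coactivators, TEAD and LATS genes, CCN1, CCN2 and ANKRD1, and up to 8 components and 8 targets with the smallest p; from the further lists, those called. STK38 is given so after its values were seen.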

Additional observations from a re-analysis of the deposited data

How the results depend on the processing

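With 3 arrays a group, small changes cannot be told from array spread, and dim genes have no shown level above background. No component was called in any of the 12 other fits, and no target in any except those on single-symbol clusters and on clusters above the median level (1 each, GADD45A); all other calls and directions among members were kept, apart from the reversals given here. Cyclic loess gave 0.0017 for ARHGEF17. Leaving out 1 array gave ranges that include 0 for YAP1 (-0.1388 to 0.0244), TEAD1 (-0.0109 to 0.0516), LATS2 (-0.0986 to 0.0578), MOB1A (-0.0018 to 0.0716), MOB1B (-0.0468 to 0.0073), WWC1 (-0.0634 to 0.0392), TAOK1 (-0.0326 to 0.0629), AJUBA (-0.0271 to 0.1249) and ARHGEF17 (-0.0282 to 0.0319). The median change ran from -0.0468 to 0.0277 for components and from 0.0397 to 0.1065 for targets in those fits, and clusters called from 29 to 120 (224 with all arrays). They numbered 662 among single-symbol clusters, where fewer tests are adjusted for, and 458 among clusters above the median level. The replicate block called 156 clusters, 0 of the further pathway genes (1 without it) and 2 of the further targets (4 without it), and changed no other call given here. Further targets called were also 2 with cyclic loess and with median centring and 8 on single-symbol clusters; further pathway genes called were 3 on single-symbol clusters and 3 above the median level. Leaving out 1 array gave 0 to 1 calls in either further list. The cause of these shifts was not tested.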
